A study of Mus musculus with 33 samples.

Results

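The 10 genes described here encode 2 chemokines that bind the receptor CXCR3 (Cxcl9 and Cxcl10) and 8 products of T cells and natural killer (NK) cells: the cytokine Ifng, the chemokines Xcl1 and Ccl5, the cytotoxic granule genes Gzma and Nkg7, the receptor chain Il2rb and the T cell receptor subunits Cd3e and Cd3g. They are 10 of the 38899 genes listed in all 4 expression tables of the study, and each had a row in every table. The list was selected on measured values of these libraries: Cxcl9 and Xcl1 had been noted for opposite differences after irradiation and in the Vav1 DTX libraries. For those 2 contrasts the values of the 10 genes are therefore given as a description, with no test. In the other 5 comparisons each gene was tested with limma in a fit over all genes.

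RNA was sequenced from 33 libraries, 3 for each of 11 cell groups of C57BL/6 mice aged 8 to 12 weeks. The values are FPKM (fragments mapped to a gene, scaled for its transcript length and by a divisor for each library). That divisor was 0.849 to 1.48 times the reads recovered for the library, so it is not depth alone. Whole bone marrow cells (BMC), lineage-negative marrow cells (Lin-) and LSK cells, the marrow fraction that holds the blood stem cells, came from untreated wildtype mice. The other 8 groups were sorted bone endothelial cells (EC). Bone EC and diaphysis EC came from untreated Cdh5-mTnG mice, in which the endothelial gene Cdh5 marks the cells. Diaphysis EC were from the femur and the other groups from femur and tibia. Irradiated bone EC and 9Gy1D EC both came from Cdh5-mTnG mice given 9 Gy of irradiation, and the treatment labels state no time after it. Apln+ EC (Apln-CreERT2 R26-mTmG) and Esm1+ EC (Esm1-CreER R26-mTmG) came from mice given tamoxifen, which switches on a reporter in cells that express Apln or Esm1. Vav1 control EC and Vav1 DTX EC carried the same genotype label, Vav1-Cre R26-DTR Cdh5-mTnG (DTR is the receptor through which diphtheria toxin enters and kills cells), and the same treatment label, diphtheria toxin, so that only their titles (ctrl and DTX) separate them. Vav1-Cre is known to act in blood-forming cells and also in part of the endothelium. Nothing in the labels ties a replicate to an animal of its own. The p-values therefore speak of the spread between these samples, and that may be technical.

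Depth ran from 1.55 to 1.87 M reads per library in LSK, from 2.72 to 3.68 M in bone EC and irradiated bone EC, and from 5.1 to 12.3 M in the other groups. The 12 endothelial markers summed to 987 to 6410 FPKM in the endothelial libraries and to 23.1 to 119 in BMC, Lin- and LSK. Blood cell transcripts were present in each endothelial group: the 4 leukocyte markers summed to 153 to 1870 FPKM and the 8 T cell markers, Cd3e and Cd3g among them, to 9.41 to 66.6. In such bulk libraries fewer cells of a type and less RNA per cell cannot be told apart. Esm1+ EC replicates 1 and 2 were close to the same library, with a chi-square per degree of freedom of 1.41 between their reads against 3.33 to 198 in the other 32 pairs of replicates. Apln+ EC replicate 1 stood apart from replicates 2 and 3 (164 and 198, against 28.5 between those). So did Vav1 DTX EC replicate 2 (114 and 129, against 20.2) and Lin- replicate 3 (98.4 and 108, against 13.7) from the other libraries of their groups. Where leaving out or averaging these libraries changes a call among the 10 genes, both values are given.

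CXCL9 and CXCL10 are small secreted proteins that draw activated T cells and NK cells, which carry CXCR3, into inflamed tissue. Many cell types, endothelium and macrophages included, make them when interferon gamma binds its receptor, which signals through the kinases JAK1 and JAK2. T and NK cells are the main source of interferon gamma (Ifng), and they also release XCL1, which attracts the XCR1+ dendritic cells that present antigen to killer T cells. CCL5 attracts T cells and monocytes. Granzyme A is a protease stored in the granules of killer lymphocytes, and NKG7 is a membrane protein of the same granules. Il2rb encodes the receptor chain shared by IL-2 and IL-15, and the CD3 epsilon and gamma chains pass on the signal of the T cell receptor.

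Both CXCR3 ligand genes lie close together on the minus strand of chromosome 5 (GRCm38, GENCODE vM21). Cxcl9 (ENSMUSG00000029417.9) spans 92321347 to 92328079 and Cxcl10 (ENSMUSG00000034855.13) spans 92346638 to 92348889, with 18558 bases between them. Cd3g (ENSMUSG00000002033.14, 44969572 to 44980431) and Cd3e (ENSMUSG00000032093.7, 44998740 to 45009627) lie close together on the minus strand of chromosome 9, with 18308 bases between them. Xcl1 (ENSMUSG00000026573.7) lies on chromosome 1 from 164931644 to 164935527 and Ifng (ENSMUSG00000055170.4) on chromosome 10 from 118441046 to 118445892. Ccl5 (ENSMUSG00000035042.2) lies on chromosome 11 from 83525778 to 83530518 and Gzma (ENSMUSG00000023132.8) on chromosome 13 from 113093825 to 113100981. Nkg7 (ENSMUSG00000004612.9) lies on chromosome 7 from 43437073 to 43438249 and Il2rb (ENSMUSG00000068227.9) on chromosome 15 from 78479256 to 78495271. All 10 are protein-coding. Cxcl10 overlaps Art3 on the opposite strand, Xcl1 and Cd3e each overlap a non-coding gene on the opposite strand, and Cd3e and Ifng overlap an unnamed gene model on their own strand. Reads of the overlapping parts cannot be told apart where strand was not used.

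The 250 bases before the start of each ligand gene are shown because this pair carries the largest differences among the 10 after irradiation and because interferon signalling acts on such regions. The sequences are from RefSeq (GRCm38.p6) and are read 5′ to 3′ on the minus strand, for Cxcl9 at chr5:92328080-92328329 and for Cxcl10 at chr5:92348890-92349139. Capitals mark a match to the core of the interferon-stimulated response element (ISRE: GAAA, any 2 bases, GAAA, on either strand), to which interferon regulatory factors bind.
Cxcl9: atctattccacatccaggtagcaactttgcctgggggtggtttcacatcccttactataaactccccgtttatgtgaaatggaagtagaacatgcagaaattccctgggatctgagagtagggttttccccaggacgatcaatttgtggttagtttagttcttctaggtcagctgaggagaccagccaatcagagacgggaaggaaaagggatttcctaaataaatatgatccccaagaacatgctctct
Cxcl10: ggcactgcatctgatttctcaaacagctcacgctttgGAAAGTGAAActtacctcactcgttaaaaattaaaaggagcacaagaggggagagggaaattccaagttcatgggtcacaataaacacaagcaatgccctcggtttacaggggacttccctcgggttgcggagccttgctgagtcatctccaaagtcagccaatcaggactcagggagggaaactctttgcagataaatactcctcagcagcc
The Cxcl10 window held 1 ISRE match, which began 213 bases before the gene's start, and the Cxcl9 window held none. Neither window held the letters of the interferon gamma activated site (GAS: TTCNNNGAA). The RefSeq table had windows for 8 of the 10 genes, all but Ccl5 and Il2rb. Gzma had an ISRE match 97 bases before its start, and Ifng and Nkg7 had a GAS match 249 and 220 bases before theirs. The windows of Xcl1, Cd3e and Cd3g held neither. So 2 of 8 windows had an ISRE match and 2 of 8 a GAS match, where 2.98% and 7.02% of all 32851 promoter windows of this length did, with both strands searched. A match describes letters and is not a measured binding site.

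**Figure D1:**
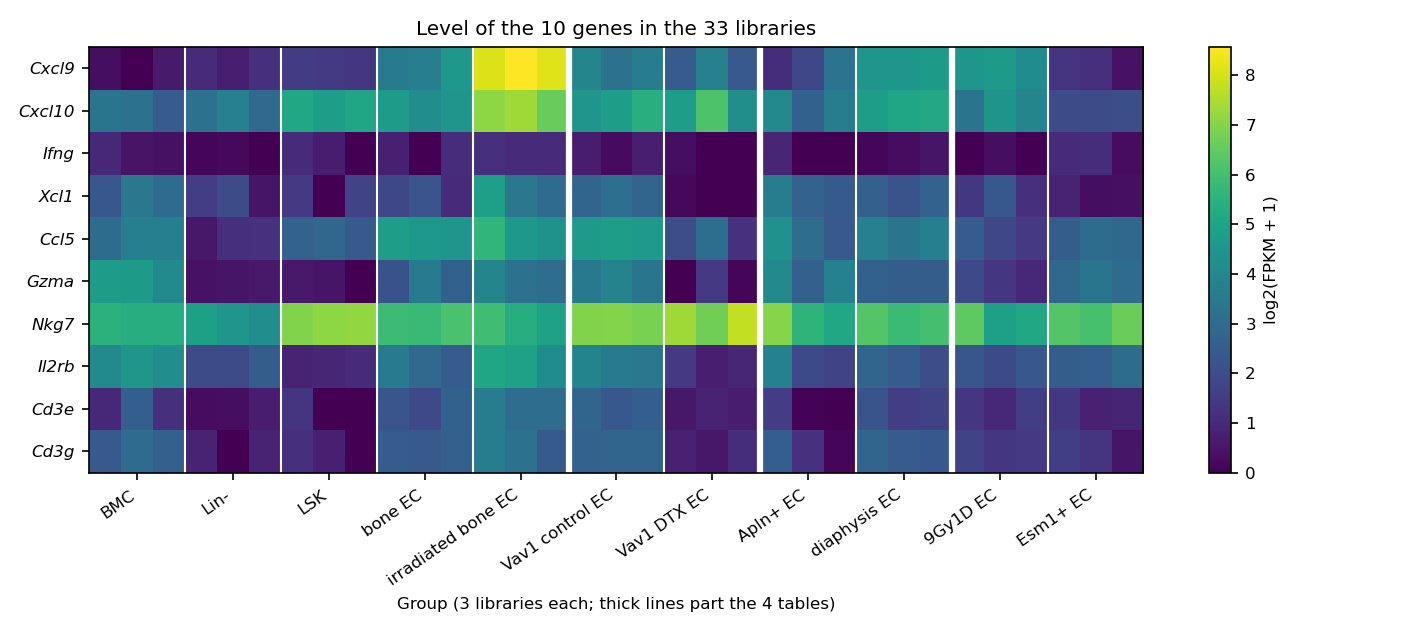
Level of the 10 genes (rows) in each of the 33 libraries (columns, by group and replicate), as log2(FPKM + 1). Cxcl9 and Cxcl10 peak in the 3 irradiated bone EC libraries (277 to 378 and 94.4 to 161 FPKM), Nkg7 is at 17.4 FPKM or more in every library, and Ifng is at or under 1.27 FPKM throughout.

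The 10 genes differed in the order of their levels over the 11 groups, as the map of levels by library shows. Cxcl9 was highest in irradiated bone EC, at 312 ± 56.6 FPKM (mean ± SD, n = 3 in each group here and below). Diaphysis EC (22.5 ± 1.76), 9Gy1D EC (21.0 ± 3.93), bone EC (15.1 ± 6.77), Vav1 control EC (11.1 ± 2.77), Vav1 DTX EC (7.07 ± 4.61) and Apln+ EC (4.14 ± 4.01) followed, each overlapping the next in range. The lowest Cxcl9 levels were those of LSK (1.7 ± 0.127), Esm1+ EC (1.02 ± 0.6), Lin- (0.991 ± 0.31) and BMC (0.256 ± 0.265, from 11 reads in all). The 4 tables were normalized separately, so an order across them is a description only.

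Cxcl10 was highest in irradiated bone EC too (131 ± 34.0 FPKM), but the groups below it were closer together. Vav1 DTX EC (38.1 ± 28.5), LSK (31.4 ± 4.0), diaphysis EC (31.3 ± 4.24), Vav1 control EC (29.5 ± 10.3), bone EC (21.3 ± 3.79), 9Gy1D EC (14.5 ± 5.89), Apln+ EC (10.6 ± 5.08), Lin- (9.03 ± 2.94) and BMC (7.37 ± 2.34) each overlapped their neighbour in this order. Esm1+ EC were lowest at 2.97 ± 0.174 FPKM. The Cxcl10 level of LSK thus lay among those of the endothelial groups, while the Cxcl9 level of LSK lay below that of every endothelial group but Esm1+ EC in mean. The ratio of Cxcl9 to Cxcl10 FPKM was above 1 in all 6 libraries from irradiated mice, at 2.01 to 2.98 in irradiated bone EC and 1.19 to 2.46 in 9Gy1D EC. Among the other libraries it was above 1 in bone EC replicate 3 (1.06) and between 0 and 0.805 in the rest.

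**Figure D2:**
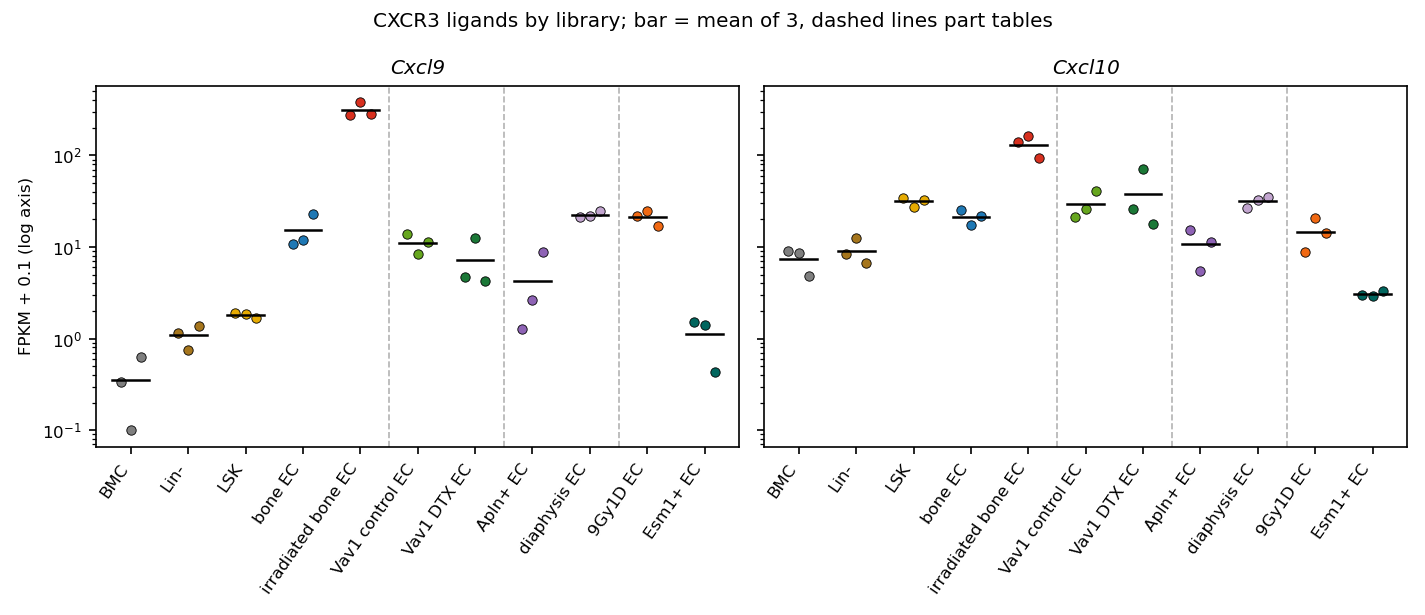
FPKM + 0.1 of Cxcl9 and Cxcl10 in each library on a log axis, by group, with 1 point per replicate and a bar at the group mean. The 3 irradiated bone EC libraries stand above all others for both genes, and Esm1+ EC have the lowest Cxcl10 values (2.84 to 3.17 FPKM).

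Among the lymphocyte genes Nkg7 had the highest mean FPKM in every group, from 22.2 ± 5.38 in Lin- to 161 ± 57.7 in Vav1 DTX EC. It was at 134 ± 11.1 FPKM in LSK, where Gzma (0.303 ± 0.266), Il2rb (0.909 ± 0.126), Cd3e (0.507 ± 0.878) and Cd3g (0.633 ± 0.613) were near 0, so its order over the groups was not that of the other T and NK cell genes. Ifng had at most 11 reads in any library and 0 reads in 9 of the 33. A count of 0 allows up to 3 reads, which is 0.24 FPKM in Vav1 DTX EC replicate 2 and 1.02 FPKM in LSK replicate 3 (counting error only). Irradiated bone EC had the highest means of Xcl1 (14.6 ± 11.2 FPKM), Ccl5 (30.4 ± 16.1), Il2rb (25.8 ± 7.8), Cd3e (8.61 ± 2.13) and Cd3g (8.09 ± 3.58). For Cd3e alone did these libraries not overlap the next group in the order. Gzma was highest in BMC (21.9 ± 5.09 FPKM), apart from Apln+ EC (11.1 ± 5.31), the next in order.

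**Figure D3:**
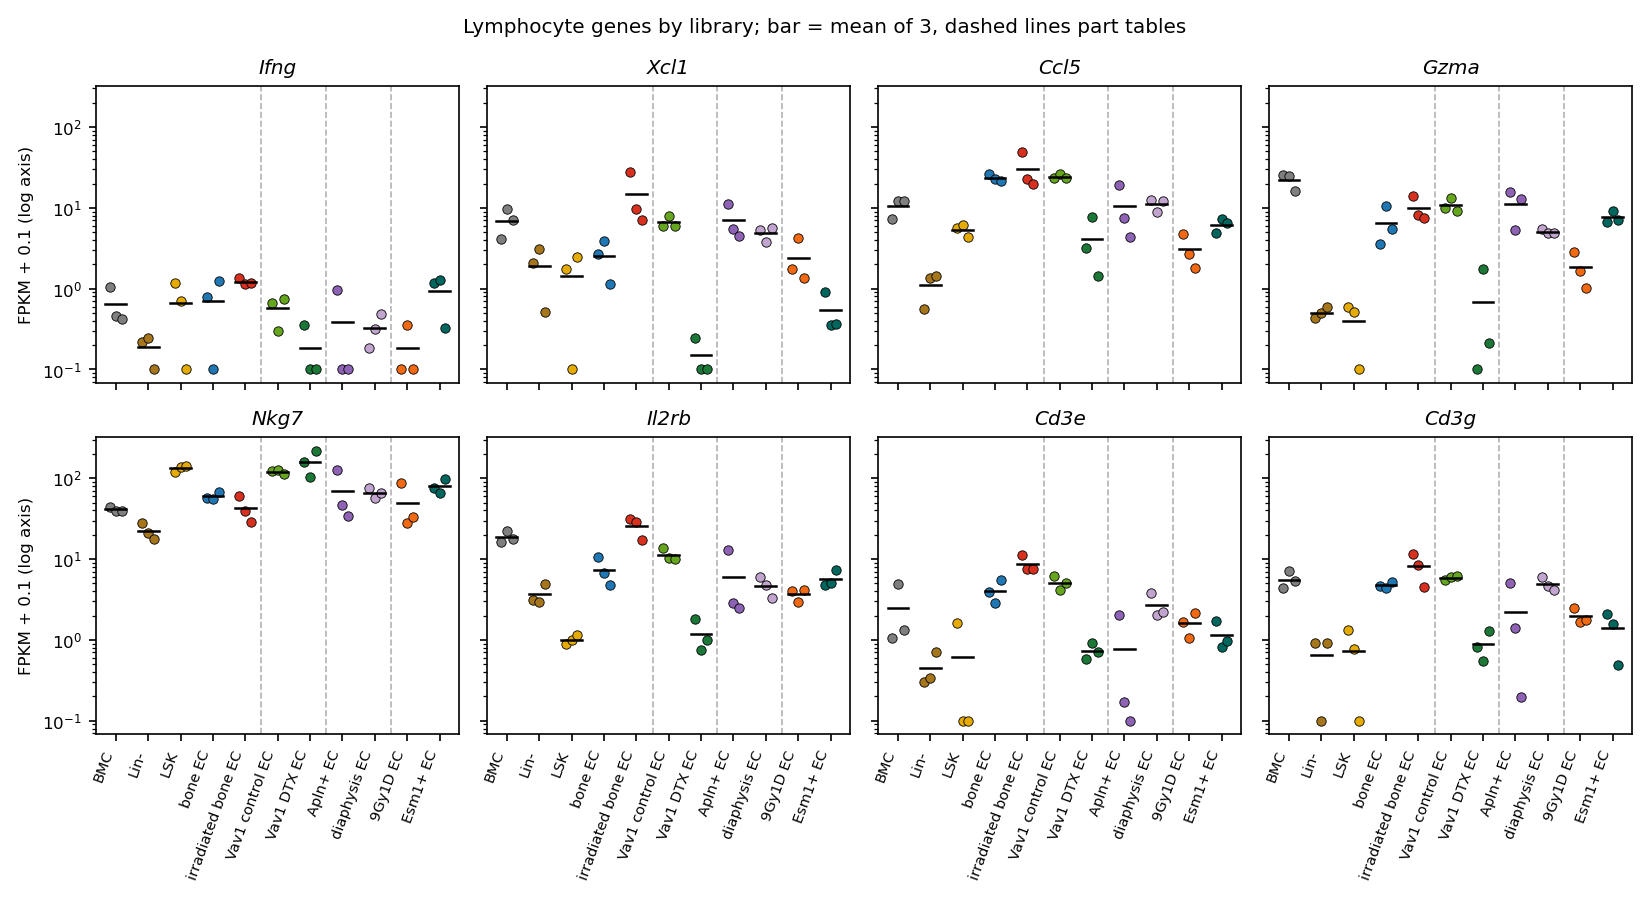
FPKM + 0.1 of the 8 T and NK cell genes in each library on a log axis, by group, with 1 point per replicate and a bar at the group mean. In Vav1 DTX EC the values of Xcl1, Ccl5, Gzma, Il2rb, Cd3e and Cd3g lie below every Vav1 control EC value, and those of Nkg7 (103 to 219 FPKM against 113 to 126) do not.

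Irradiated bone EC were compared with bone EC to describe the response to 9 Gy. Cxcl9 was at 10.6, 11.7 and 22.9 FPKM in the bone EC libraries and at 277, 378 and 282 in the irradiated ones, a 20.7-fold higher mean (difference of log2(FPKM + 1) 4.35, standard error 0.29). Cxcl10 was at 25.0, 17.4 and 21.6 FPKM against 138, 161 and 94.4, a 6.16-fold higher mean (2.55, standard error 0.23). For neither gene did an irradiated library reach down to the unirradiated range. Art3, which overlaps Cxcl10, was at 4.17 to 4.99 FPKM in bone EC and 16.8 to 22.7 in irradiated bone EC, and its part in the Cxcl10 reads was not tested.

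Xcl1 gave 2.61, 3.75 and 1.05 FPKM in bone EC and 27.5, 9.5 and 6.94 after irradiation, from 13 and 86 reads in all. These groups did not overlap either, and the 5.92-fold ratio of the means was 3.33 without the high irradiated replicate 1. Il2rb was at 10.6, 6.69 and 4.65 FPKM against 31.6, 29.0 and 17.0, a 3.53-fold higher mean. Cd3e was at 3.81, 2.73 and 5.37 FPKM against 11.1, 7.35 and 7.41, a 2.17-fold higher mean. The other 5 genes overlapped between the groups. Cd3g had 4.68 ± 0.442 FPKM before and 8.09 ± 3.58 after irradiation, and Gzma at 6.4 ± 3.62 and 9.85 ± 3.63. Ccl5 was at 23.4 ± 2.47 and 30.4 ± 16.1 FPKM, and Ifng, with 8 and 15 reads in all, at 0.607 ± 0.574 and 1.13 ± 0.131. Nkg7 was the only one of the 10 with a lower mean after irradiation, at 60.2 ± 6.65 against 43.0 ± 16.5 FPKM. Irradiated libraries lay wholly above the others for 5 of the 10 genes, and for 29.6% of the 13044 genes tested. Because the genes were selected on this contrast, nothing is read from that count.

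The makeup of the libraries moved with irradiation. The 12 endothelial markers summed to 1580 to 2020 FPKM in bone EC and 4580 to 6410 in irradiated bone EC, and the 4 leukocyte markers to 819 to 1010 against 153 to 281. B cell markers summed to 303 to 512 against 9.72 to 25.7 FPKM, neutrophil markers to 46600 to 47300 against 988 to 4410, and erythroid markers to 41400 to 45000 against 312 to 937. The 8 T cell markers, by contrast, overlapped at 40.9 to 45.3 against 40 to 66.6 FPKM, as did the 5 NK cell markers (11.9 to 16.4 against 12.1 to 26.5) and the 7 macrophage and dendritic cell markers (453 to 473 against 365 to 677). No marker was at 0 in either group. Per Ptprc, the gene of the pan-leukocyte protein CD45, Cd3e was at 0.0524 to 0.124 in bone EC and 0.481 to 0.647 in irradiated bone EC, and Il2rb at 0.107 to 0.146 against 1.48 to 1.9. The part of these shifts in the levels of the 10 genes was not tested.

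When each library was scaled to its endothelial markers, the median log2 difference over all genes moved from 0.06 to -1.32. On that scale the differences of Cxcl9 (2.72), Cxcl10 (0.91), Xcl1 (0.67) and Il2rb (0.16) stayed above 0. Those of Cd3e (-0.44), Cd3g (-0.81), Gzma (-0.84), Ccl5 (-1.35) and Ifng (-0.19) turned below 0, so the direction of these 5 genes depends on the scale. Per Cdh5, Cxcl9 was at 0.135 to 0.244 in bone EC and 1.41 to 1.95 in irradiated bone EC, and Cxcl10 at 0.201 to 0.39 against 0.471 to 0.833.

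Genes of the interferon gamma pathway outside the 10 were tested in this contrast, in which 41.9% of genes were called (22.5% higher and 19.4% lower, limma with Benjamini-Hochberg adjusted p below 0.05). Of 9 receptor and signalling genes 7 were higher and 0 lower after irradiation, with a median log2 difference of 1.06 against 0.06 over all genes. The receptor chain Ifngr1 was at 228 ± 21.5 FPKM against 103 ± 6.61 in bone EC (adjusted p = 0.00083) and the kinase Jak1 at 294 ± 85.1 against 90.7 ± 10.2 (adjusted p = 0.0018, limma). Scaled to the endothelial markers, 0 of these 9 were called higher and 4 lower, and Ifngr1 (-0.52), Jak1 (-0.02) and Nlrc5 (-0.06) turned below 0. Of 18 interferon-induced genes 13 were higher and 4 lower, with a median of 1.9. All 10 GTPases of the Irg and Gbp families, which defend cells against microbes, were among the higher ones, and Iigp1 had the largest difference (475 ± 105 against 32.1 ± 7.65 FPKM, log2 difference 3.85, adjusted p = 0.00016 by limma). It kept a difference of 2.2 with endothelial scaling, as Gbp4 did one of 1.91 and Gbp6 one of 2.02, and 8 of the 18 were called higher on that scale. The 4 lower genes encode the MHC class II chains and their chaperone, which antigen-presenting cells express: Cd74 (-1.46), H2-Aa (-1.88), H2-Ab1 (-1.53) and H2-Eb1 (-1.95).

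Other T and NK cell genes had mixed results after irradiation. Of 17 tested genes of the T cell receptor list 3 were higher and 2 lower, with a median of 0.29. Lck, the kinase that acts on the CD3 chains, was at 13.2 ± 0.301 against 7.17 ± 1.34 FPKM (adjusted p = 0.006, limma), but at -0.71 with endothelial scaling. Cd4 was at 2.15 ± 0.407 against 7.19 ± 0.548 FPKM (adjusted p = 0.00065). Without irradiated replicate 1 or 2 the count of higher T cell genes was 1, and without any 1 bone EC library that of lower ones was 1. Of 11 NK cell genes 4 were higher and 3 lower. The NK receptor Ncr1 was at 7.21 ± 2.48 against 1.59 ± 0.952 FPKM (adjusted p = 0.0048, limma), and the adaptor Tyrobp, which myeloid cells also express, at 110 ± 83.1 against 896 ± 166 (adjusted p = 0.0016). The higher NK cell genes numbered 2 when any irradiated library, or bone EC replicate 1 or 2, was left out. Of 8 granule genes 6 were higher and 2 lower, and Gzmb, the granzyme known for triggering cell death, was at 11 ± 4.21 against 3.9 ± 1.31 FPKM (adjusted p = 0.016), but at -0.16 with endothelial scaling. Without bone EC replicate 2 the granule genes called higher numbered 3. With endothelial scaling 0 genes of these 3 lists were called higher. Of the T cell, NK cell and granule genes tested, 1, 2 and 1 passed the minimum through 1 group alone, so that the filter fixed their direction.

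On the receptor side, Cxcr3 had 7.33 ± 0.417 FPKM before and 7.19 ± 2.35 after irradiation (log2 difference -0.06, adjusted p = 0.84, limma). Of 7 tested genes of the CXCR3 and XCR1 list 4 were lower and 1 higher. The lower ones included Ccl4, a chemokine of the same family as Ccl5 (20.5 ± 19.6 against 271 ± 25.3 FPKM, log2 difference -4.02, adjusted p = 0.0012, limma), and Ccl3 (9.2 ± 7.55 against 94.7 ± 9.2, adjusted p = 0.0013). Whether Ccl5 and Ccl4 differ in response was not tested. The higher one, Xcr1, was at 0.371 to 0.734 against 1.05 to 1.39 FPKM. It thus passed the minimum of 1 FPKM through irradiated bone EC alone, and the filter fixed its direction. Its call was lost when any 1 library was left out, and without an irradiated library it fell under the minimum. Of 9 cytokines and receptors, 1 of which passed the minimum through 1 group alone, 4 were higher and 2 lower. Il2ra, which joins Il2rb in the high-affinity IL-2 receptor, was at 5.58 ± 0.656 against 1.13 ± 0.274 FPKM (adjusted p = 0.0005, limma). The shared chain Il2rg was at 127 ± 4.65 against 60.8 ± 7.3 (adjusted p = 0.001), but at -0.6 with endothelial scaling, where 0 genes of the list were called higher and 6 lower. Without any 1 bone EC library the lower cytokine genes numbered 1.

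Vav1 DTX EC were compared with Vav1 control EC, the contrast named for diphtheria toxin in the titles. Cxcl9 was at 13.8, 8.25 and 11.2 FPKM in the control libraries and 4.62, 12.4 and 4.2 in the DTX libraries, where replicate 2 lay inside the control range. Cxcl10 was at 21.3, 26.1 and 41.1 FPKM against 26.1, 70.7 and 17.7, with DTX replicate 2 again the highest (log2 difference 0.17, standard error 0.49, and 0.0 with endothelial scaling). Without DTX replicate 2 the mean of Cxcl9 was 2.51-fold lower, in place of 1.57-fold, and that of Cxcl10 was 0.741 times the control mean, in place of 1.29 times. That library also had the highest Cdh5, at 56.0 FPKM against 22.9 and 21.8 in DTX replicates 1 and 3. Per Cdh5, Cxcl9 was at 0.193 to 0.221 in the DTX libraries and 0.319 to 0.757 in the controls, while Cxcl10 overlapped (0.811 to 1.26 against 1.01 to 1.44).

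Xcl1 was at 5.92, 7.72 and 5.86 FPKM in the controls (91 reads) and at 0.147, 0 and 0 in the DTX libraries (1 read in all). Per read sequenced the controls were 105 times higher, a description that rests on this 1 DTX read. Gzma was at 9.93, 13.1 and 9.01 FPKM in the controls and 0, 1.65 and 0.111 in the DTX libraries, an 18.2-fold lower mean. Outside DTX replicate 2, 1 read of Gzma was left in the DTX libraries. Ccl5 was at 23.1, 26.5 and 23.2 FPKM against 3.05, 7.64 and 1.32, a 6.05-fold lower mean, and 11.1-fold without DTX replicate 2. These 3 secreted or granule products thus had no DTX library within the control range. The receptor genes lay apart too. Il2rb was at 13.5, 10.2 and 9.8 FPKM against 1.69, 0.658 and 0.911, a 10.3-fold lower mean. Cd3e (4.99 ± 0.957 against 0.634 ± 0.163 FPKM) and Cd3g (5.81 ± 0.293 against 0.786 ± 0.372) had 7.87-fold and 7.39-fold lower means.

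Nkg7 did not go with them, at 122, 126 and 113 FPKM in the controls and 160, 103 and 219 in the DTX libraries. Ifng was at 0.476 ± 0.241 against 0.0852 ± 0.148 FPKM, from 16 and 4 reads, too low for the fit. The DTX libraries lay wholly below the controls for 6 of the 9 genes in the fit, of which Xcl1 and Cd3e passed the minimum through the controls alone, and for 23.6% of the 11664 genes tested, a count from which nothing is read because the genes were selected on this contrast.

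Markers of several blood cell types were lower in the DTX libraries as well. The 5 NK cell markers summed to 13.1 to 16.0 FPKM in the controls and 1.3 to 2.15 in the DTX libraries, the 8 T cell markers to 46.0 to 54.5 against 9.41 to 14.3, and B cell markers to 435 to 575 against 20.4 to 23.6. Macrophage and dendritic cell markers summed to 439 to 542 against 168 to 229 FPKM, and erythroid markers to 43400 to 82100 against 1650 to 3150. The neutrophil markers summed to 85000 to 94500 against 34800 to 82300 FPKM, but of these 8 genes 1, Retnlg, was called lower, and the early granule genes Elane (1220 ± 48.3 against 2160 ± 801 FPKM) and Mpo (830 ± 79.9 against 1690 ± 794) had higher means in the DTX libraries, without a call (adjusted p = 0.099 and 0.14, limma). Endothelial markers overlapped (1380 to 1700 against 1170 to 2710), and no marker was at 0. Per Ptprc, Il2rb was at 0.168 to 0.214 in the controls and 0.029 to 0.0512 in the DTX libraries, and Cd3e at 0.0704 to 0.0948 against 0.0147 to 0.0494. Nkg7 per Ptprc ran the other way, at 1.93 to 2.17 against 4.86 to 6.94. The part of cell content in these values was not tested.

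Of all genes tested, 26.3% were called in this contrast (11.3% higher and 15% lower). In the T cell receptor list 12 of 14 tested genes were lower and 0 higher, but 4 of the 14 reached the 1 FPKM minimum in control libraries alone, so that the filter fixed their direction. The adhesion receptor Cd2 was at 0.734 ± 0.532 FPKM in the DTX libraries against 13.3 ± 1.41 (adjusted p = 0.00022, limma) and the T cell receptor constant gene Trac at 1.36 ± 0.364 against 13.1 ± 1.42 (adjusted p = 0.00013). Of 7 NK cell genes, 4 of which passed through the controls alone, 6 were lower, among them the receptor Klrd1 (1.14 ± 0.263 against 8.25 ± 1.4 FPKM, adjusted p = 0.00033). Without any 1 control library 7 T cell and 2 NK cell genes were called lower. Of 7 granule genes Ctsw and Prf1 were lower and Cst7 was higher (91.2 ± 20.8 against 34.5 ± 3.12 FPKM, adjusted p = 0.0028, limma). Cst7, an inhibitor of granule proteases that myeloid cells also express, thus went against Ctsw (1.01 ± 0.35 against 9.13 ± 1.9, adjusted p = 0.00037). With endothelial scaling 0 granule genes were called higher, and without DTX replicate 1 or 3, or any 1 control library, 1 was called lower. Of the 7 granule genes 1 passed the minimum through 1 group alone.

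Of 8 receptor and signalling genes 3 were lower, with the receptor chain Ifngr2 at 26.3 ± 1.62 against 38.4 ± 4.07 FPKM (adjusted p = 0.022, limma). Of these 8 genes 1 passed the minimum through 1 group alone. Of 18 interferon-induced genes 7 were lower and 0 higher, including Cd74 (284 ± 54.1 against 2700 ± 338 FPKM, adjusted p = 0.0001) and the MHC class II chains H2-Aa (log2 difference -3.13), H2-Eb1 (-3.07) and H2-Ab1 (-2.82). Without DTX replicate 2 the lower genes numbered 5 and 14, and without control replicate 1 or 3 the signalling count was 1. With endothelial scaling 4 of the 18 were called lower. Cxcr3 was lower (1.91 ± 0.446 against 6.92 ± 1.64 FPKM, log2 difference -1.43, adjusted p = 0.0029, limma), and Ccl3 was higher (221 ± 115 against 75.6 ± 12.4, adjusted p = 0.025), the latter not without DTX replicate 1 or any 1 control library. Of 6 cytokine genes Il18 and Il7r were lower and Il15ra was higher.

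**Figure D4:**
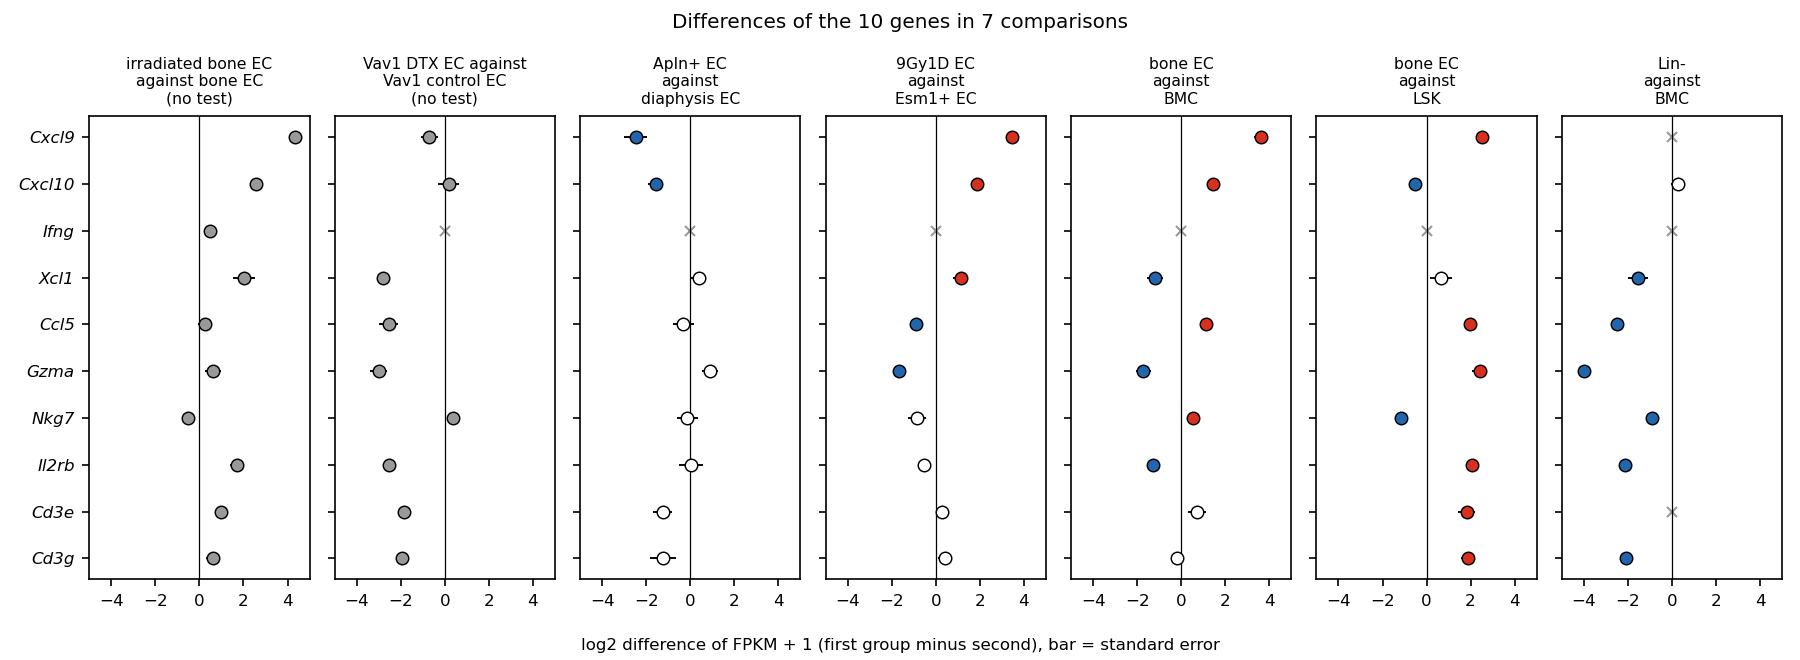
Difference of log2(FPKM + 1) for each of the 10 genes in the 7 comparisons, with standard errors as bars, red for called higher, blue for called lower, white for not called, grey for contrasts used to choose the genes and a cross for not tested. Cxcl9 is above 0 after irradiation (4.35) and below 0 in Vav1 DTX EC (-0.7) and Apln+ EC (-2.48), and for Cd3e, Cd3g, Gzma, Ccl5 and Ifng the irradiation value turns below 0 with endothelial scaling.

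Apln+ EC were compared with diaphysis EC, a contrast in which genotype, tamoxifen and bone differ together and cannot be told apart. Cxcl9 was at 1.18, 2.54 and 8.7 FPKM in Apln+ EC and at 21.4, 21.5 and 24.5 in diaphysis EC, a 5.43-fold lower mean, or 12.1-fold without Apln+ replicate 3 (log2 difference -2.48, standard error 0.52, adjusted p = 0.038 by limma). Cxcl10 was at 15.4, 5.32 and 11.1 FPKM against 26.6, 32.4 and 34.8, a 2.95-fold lower mean (-1.57, standard error 0.35, adjusted p = 0.048). Both ligands were lower in 3 of 3 Apln+ libraries, and both calls were close to the threshold. Of the 9 genes tested these 2 were called lower and 0 higher, where 7.49% of all genes were called (4.64% lower and 2.84% higher). Over 16 alternative settings the adjusted p of Cxcl9 ran from 0.0058 to 0.18, with 10 calls, and that of Cxcl10 from 0.0018 to 0.69, with 6 calls. Leaving out any 1 diaphysis library ended both calls (adjusted p 0.16 to 0.18 for Cxcl9 and 0.16 to 0.21 for Cxcl10, limma). Leaving out Apln+ replicate 2 did too (0.15 and 0.067), and leaving out Apln+ replicate 3 ended that of Cxcl10 (0.12).

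The lymphocyte genes were spread widely in Apln+ EC, where replicate 1 was the highest for each of the 8. Nkg7 was at 128, 46.8 and 34.5 FPKM and Il2rb at 12.7, 2.79 and 2.37, against 65.7 ± 9.88 and 4.58 ± 1.39 in diaphysis EC. Ptprc was highest in replicate 1 too, at 103, 25.0 and 26.8 FPKM in the 3 Apln+ libraries, whose leukocyte markers summed to 560 to 1870 and endothelial markers to 1130 to 5280. Cd3e was at 1.93, 0.0704 and 0 FPKM against 3.68, 1.95 and 2.14, and the groups did not overlap (log2 difference -1.26, standard error 0.44, adjusted p = 0.17). Gzma had the largest difference upward, at 15.5, 5.18 and 12.6 against 5.3, 4.79 and 4.76 FPKM (0.9, standard error 0.36, adjusted p = 0.23). Without Apln+ replicate 1, 6 of the genes were called lower: both ligands and Ccl5 (-0.85, adjusted p = 0.026), Nkg7 (-0.68, 0.024), Cd3e (-1.76, 0.0011) and Cd3g (-1.86, 0.0037). Without Apln+ replicate 2 Gzma was called higher (1.33, adjusted p = 0.028, limma). So the calls on the lymphocyte genes turned on which Apln+ library was left out.

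Around them, Cxcr3 was lower in Apln+ EC (2.5 ± 0.947 against 10.5 ± 1.09 FPKM, adjusted p = 0.0082, limma), as was Ccl4 (86.5 ± 12.2 against 360 ± 58.6, adjusted p = 0.0024). In the interferon-induced list 1 of 18 genes passed the minimum through 1 group alone. Of these 18 genes 7 were lower, led by H2-Eb1 (86.9 ± 50.7 against 777 ± 137 FPKM, adjusted p = 0.0059, limma). Without Apln+ replicate 1 the adjusted p of Cxcr3, Ccl4 and H2-Eb1 was 0.0013, 0.00011 and 3.8e-05. Their number was 12 without Apln+ replicate 1, 2, 4 and 1 without diaphysis replicates 1, 2 and 3, and 0 with endothelial scaling. Of 8 receptor and signalling genes 3 were lower, Jak1 and Irf1 among them, and of 14 T cell genes, 3 of which passed the minimum through 1 group alone, 3 were lower (Cd4, Cd8a and Cd8b1). The signalling count was 6 and the T cell count 11 without Apln+ replicate 1, and both were 0 without any 1 diaphysis library. Of 8 granule genes 0 were called, and of 6 NK cell genes 1, Klrd1, was lower (3.02 ± 2.5 against 14.0 ± 1.61 FPKM, adjusted p = 0.033, limma), a call that omission of any library but Apln+ replicate 1 ended. The macrophage and dendritic cell markers summed to 147 to 233 FPKM in Apln+ EC and 462 to 576 in diaphysis EC, and their part in these values was not tested.

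9Gy1D EC were compared with Esm1+ EC, the other groups of 1 table. Irradiation, genotype and tamoxifen differ together between them and cannot be told apart. Cxcl9 was at 21.7, 24.5 and 16.8 FPKM in 9Gy1D EC and at 1.43, 1.3 and 0.332 in Esm1+ EC, a 20.6-fold higher mean (log2 difference 3.48, standard error 0.27, adjusted p = 0.00017 by limma). Cxcl10 was at 8.82, 20.6 and 14.0 FPKM against 2.91, 2.84 and 3.17, a 4.86-fold higher mean (1.89, standard error 0.28, adjusted p = 0.0019). Both were higher in 3 of 3 libraries. The Cxcl9 call held in 17 of 17 alternative settings (adjusted p up to 0.0017), and that of Cxcl10 in 16, the exception being endothelial scaling (0.5, adjusted p = 0.23). Per Cdh5, Cxcl9 was at 0.229 to 0.481 against 0.0235 to 0.0693, while Cxcl10 overlapped (0.191 to 0.315 against 0.142 to 0.225). Art3, on the other strand of Cxcl10, was at 10.9 ± 2.34 against 1.34 ± 0.572 FPKM.

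The lymphocyte genes were split in direction. Gzma was at 2.74, 1.57 and 0.925 FPKM in 9Gy1D EC and 6.51, 9.08 and 6.9 in Esm1+ EC, a 4.3-fold lower mean (-1.67, standard error 0.27, adjusted p = 0.0027, limma), called in 16 of 16 alternatives. Ccl5 was at 4.65, 2.55 and 1.69 FPKM against 4.76, 7.08 and 6.31, a 2.04-fold lower mean (-0.88, standard error 0.29, adjusted p = 0.044). That call held in 5 of 16 alternatives. It was lost without 9Gy1D replicate 2 (0.12) or 3 (0.11), without Esm1+ replicate 1 (0.061), 2 (0.13) or 3 (0.098), and with Esm1+ replicates 1 and 2 averaged (adjusted p = 0.083).

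Xcl1 was higher in 9Gy1D EC, at 1.64, 4.1 and 1.24 FPKM against 0.82, 0.25 and 0.263, from 23 and 5 reads (1.13, standard error 0.33, adjusted p = 0.029, limma). All Esm1+ values were under 1 FPKM, so Xcl1 passed the minimum through 9Gy1D EC alone, and with no filter the call was lost (0.059). It was also lost without Esm1+ replicate 2 (0.093) or 3 (0.079), with Esm1+ replicates 1 and 2 averaged (0.059) and with endothelial scaling (0.37, adjusted p = 0.28). Il2rb lay wholly lower in 9Gy1D EC, at 2.81 to 4.02 against 4.72 to 7.22 FPKM, without a call (-0.52, adjusted p = 0.084). Nkg7 was at 86.7, 27.6 and 33.1 against 75.5, 66.5 and 99.2 FPKM (-0.87, adjusted p = 0.12), and without the high 9Gy1D replicate 1 it was called lower (-1.36, adjusted p = 0.0028, limma). Cd3e (0.29, adjusted p = 0.37) and Cd3g (0.4, adjusted p = 0.33) were not called, and both turned below 0 with endothelial scaling (-0.58 and -0.46). Ifng had 2 reads in 9Gy1D EC and 22 in Esm1+ EC, a ratio per read sequenced of 8.56 in favour of Esm1+ EC with a 95% counting interval of 2.11 to 75.1. Of the 22 reads 20 came from the near-identical replicates 1 and 2, and the ratio was 7.47 (1.69 to 68.2) without the first and 6.64 (1.45 to 61.6) without the second of them. In all, 3 of 9 genes were called higher and 2 lower, where 43.7% of all genes were called (20.6% higher and 23.1% lower).

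In this pair too the interferon-induced list was mostly higher, with 12 of 18 higher and 2 lower (median 1.59 against 0 over all genes), 3 and 6 with endothelial scaling. Iigp1 was at 112 ± 13.7 against 6.51 ± 2.17 FPKM (log2 difference 3.95, adjusted p = 6.1e-05, limma) and the inhibitory ligand Cd274 at 10.7 ± 1.75 against 1.81 ± 0.202 (2.05, adjusted p = 0.00023). With Esm1+ replicates 1 and 2 averaged, the adjusted p of Iigp1, Cd274, Ifngr1 and Cd3d was 0.00046, 0.0019, 0.0035 and 0.018 (limma). In the interferon-induced list and among 9 receptor and signalling genes, 2 genes each passed the minimum through 1 group alone. Of these 9 genes 7 were higher and 1 lower, 4 higher without 9Gy1D replicate 3. Ifngr1 (1.23, adjusted p = 0.00032), Jak1 and Irf1 were among the higher ones, and these 3 turned below 0 with endothelial scaling (-0.37, -0.43 and -0.44). Of 12 T cell genes, 3 of which passed the minimum through 1 group alone, 1 was higher and 5 lower, including the CD3 delta chain Cd3d (1.85 ± 1.4 against 10.8 ± 0.171 FPKM, adjusted p = 0.0049, limma). The lower ones numbered 3 with Esm1+ replicates 1 and 2 averaged, and the 2 lower interferon-induced genes, Cd74 and H2-Ab1, numbered 0. Cxcr3 was at 2.1 ± 0.264 against 3.94 ± 0.6 FPKM (log2 difference -0.67). Leukocyte markers summed to 501 to 952 FPKM in 9Gy1D EC and 1810 to 1840 in Esm1+ EC, T cell markers to 15.2 to 21.9 against 27.1 to 31.0, NK cell markers to 2.72 to 3.49 against 2.45 to 4.74, and endothelial markers to 3710 to 5560 against 987 to 1900. Macrophage and dendritic cell markers lay wholly higher in 9Gy1D EC, at 305 to 506 against 212 to 296, and B cell markers wholly lower, at 9.82 to 31.5 against 263 to 272. Their part in the calls was not tested.

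Bone EC were set against the marrow populations to place the 10 genes between endothelial and blood-forming cells. These comparisons share the bone EC libraries with the irradiation contrast and with each other. Against BMC the library kit differs as well (SMART-Seq v4 with Nextera XT for bone EC, TruSeq stranded total RNA for BMC and Lin-) and cannot be told apart from cell type. Cxcl9 stood at 10.6, 11.7 and 22.9 FPKM in bone EC against 0.238, 0 and 0.53 in BMC, a 58.9-fold higher mean (3.62, standard error 0.29, adjusted p = 2.6e-05 by limma). All BMC values were under 1 FPKM, so Cxcl9 passed the minimum through bone EC alone, and the filter fixed its direction. The fold rests on 11 BMC reads: it was 39.3 without BMC replicate 2, and 3 reads were left without BMC replicate 3. Cxcl10 (2.9-fold, 1.45, adjusted p = 0.00099), Ccl5 (2.24-fold, 1.12, adjusted p = 0.0014) and Nkg7 (1.46-fold, 0.54, adjusted p = 0.0041) were higher in bone EC too, the last not in a fit of all 15 libraries together (adjusted p = 0.05, limma). Gzma stood at 3.42, 10.4 and 5.34 FPKM against 25.2, 24.4 and 16.0, a 3.42-fold lower mean (-1.71, adjusted p = 0.0027), and Il2rb had a 2.55-fold lower mean (-1.29, adjusted p = 0.0027). Xcl1 was 2.77-fold lower (-1.19, adjusted p = 0.02), a call lost without bone EC replicate 3 (0.053), BMC replicate 2 (0.066) or BMC replicate 3 (0.052), in TPM (0.077), in the fit of all 15 libraries (0.075) and with voom (0.074). Cd3e (0.72, adjusted p = 0.15) and Cd3g (-0.18, adjusted p = 0.38) were not called, though Cd3e was called higher without BMC replicate 2 (1.22, adjusted p = 0.0049, limma) and with voom (1.45, adjusted p = 0.025), and Cd3g turned to 0.19 when values were rescaled to TPM. Of 9 genes 7 were called, where 70.4% of all genes were (35.8% higher and 34.6% lower), a share near that of the background. Of 18 interferon-induced genes 16 were higher and 0 lower in bone EC, with Iigp1 at 32.1 ± 7.65 against 0.675 ± 0.449 FPKM (adjusted p = 3.1e-06, limma). Of 9 receptor and signalling genes 3 were higher and 2 lower, and of the 6 genes of the CXCR3 and XCR1 list 3 and 2, with Cxcr3 at 7.33 ± 0.417 against 2.91 ± 1.09 FPKM (adjusted p = 0.0014). Of 18 T cell genes 1 was higher and 8 lower (4 lower without BMC replicate 2, 5 without bone EC replicate 2 or 3), and of 10 NK cell genes 0 and 5 (3 lower without bone EC replicate 3 or any 1 BMC library). Of 9 granule genes 2 were higher and 5 lower (2 lower without BMC replicate 2 or 3, 3 without BMC replicate 1), and of 9 cytokine genes 3 and 4. Of these T cell, NK cell, granule and cytokine genes 1, 1, 2 and 1 passed the minimum through 1 group alone. Leukocyte markers summed to 819 to 1010 FPKM in bone EC and 1170 to 1490 in BMC. T cell markers summed to 40.9 to 45.3 against 25.2 to 60.5, and NK cell markers to 11.9 to 16.4 against 17.5 to 25.8. Macrophage and dendritic cell markers summed to 453 to 473 against 111 to 135. Their part in these values was not tested.

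Against LSK, made with the same kit as bone EC, 6 of 9 genes were called higher in bone EC and 2 lower, where 60.1% of genes were called (29.5% higher and 30.6% lower). Cxcl9 was at 1.8, 1.74 and 1.56 FPKM in LSK, 8.86-fold below bone EC (2.5, standard error 0.27, adjusted p = 0.00012 by limma). Ccl5 (4.45-fold, adjusted p = 2e-05) and Il2rb (8.05-fold, 0.00028) were higher in bone EC as well. So were Cd3e (3.81, 2.73 and 5.37 FPKM against 1.52, 0 and 0 in LSK, adjusted p = 0.0037) and Cd3g (4.6, 4.28 and 5.15 against 1.22, 0.675 and 0, adjusted p = 0.00075), each from 5 LSK reads in all. Gzma had 56 reads in bone EC and 2 in LSK, a ratio per read sequenced of 15.7 with a 95% counting interval of 4.14 to 133 (adjusted p = 0.00053, limma). It passed the minimum through bone EC alone, and the filter fixed its direction. Nkg7 went the other way, at 57.3, 55.5 and 67.8 FPKM in bone EC against 121, 137 and 143 in LSK (-1.14, standard error 0.13, adjusted p = 0.00015). Cxcl10 was lower in bone EC by 0.54 on the log2 scale (adjusted p = 0.02), a call lost without bone EC replicate 2 (0.062), LSK replicate 1 (0.069) or LSK replicate 3 (0.062). In this pair Cxcl9 and Cxcl10 thus had calls of opposite sign. Xcl1, with 13 and 5 reads, was not called (0.66, adjusted p = 0.27). Of 15 genes of the T cell receptor list 8 were higher and 3 lower in bone EC, with Cd2 at 9.6 ± 2.31 against 0.399 ± 0.306 FPKM (adjusted p = 2.5e-05, limma), and of 7 NK cell genes 5 were higher and 1 lower (3 higher without LSK replicate 3). Cxcr3 was at 0.327 ± 0.283 FPKM in LSK (adjusted p = 1.9e-05, limma). All its LSK values were under 1 FPKM, so it passed the minimum through bone EC alone, and the filter fixed its direction. Of the 15 T cell genes 1, Cd2, also passed through bone EC alone, and the filter fixed its direction. Of 18 interferon-induced genes 9 were higher and 2 lower (1 lower without bone EC replicate 2 or 3 or LSK replicate 1 or 3), and 7 lower in TPM, where the median of all genes moved from -0.05 to -0.71. Of these 18 genes 1 passed the minimum through 1 group alone. Leukocyte markers summed to 819 to 1010 FPKM in bone EC and 443 to 498 in LSK. T cell markers summed to 40.9 to 45.3 against 16.3 to 26.2, and NK cell markers to 11.9 to 16.4 against 3.24 to 7.46. Macrophage and dendritic cell markers summed to 453 to 473 against 75.6 to 78.3, and neutrophil markers to 46600 to 47300 against 303 to 350. Their part in these values was not tested.

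Lin- cells were compared with BMC, from which mature blood cells had not been removed. Of 7 tested genes 6 were lower and 0 higher in Lin- cells, where 57.5% of genes were called (28.4% lower and 29.1% higher). Gzma was at 0.334, 0.393 and 0.491 FPKM (6 reads) against 25.2, 24.4 and 16.0 (267 reads), a 53.8-fold lower mean (-4.0, standard error 0.19, adjusted p = 1.7e-05 by limma). Ccl5 was 10.2-fold lower (adjusted p = 0.00032), Cd3g 10.1-fold (0.00088, and 6.74-fold without Lin- replicate 2), Il2rb 5.26-fold (0.00022) and Nkg7 1.85-fold (0.0057, and 0.062 in TPM). Xcl1 was 3.85-fold lower (adjusted p = 0.021), or 5.78-fold without Lin- replicate 2, a call lost without BMC replicate 2 (0.072) or 3 (0.063). Cxcl10 was not called, at 9.03 ± 2.94 against 7.37 ± 2.34 FPKM (0.26, adjusted p = 0.47). Gzma and Cd3g were under 1 FPKM in all Lin- libraries and passed the minimum through BMC alone. The filter thus fixed the direction of these 2 of the 6 lower genes. Cxcl9, Ifng and Cd3e were too low for the fit. With no filter Cxcl9, at 1.06, 0.654 and 1.26 FPKM in Lin- against 0.238, 0 and 0.53 in BMC, was called higher (0.67, adjusted p = 0.041, limma). Of 15 tested genes of the T cell receptor list 13 were lower and 2 higher, and of 9 NK cell genes 9 were lower, but 7 and 6 of them reached the minimum in 1 group alone, so that the filter fixed their direction. Cd2, one such gene, was at 0.378 ± 0.213 against 19.4 ± 2.0 FPKM (adjusted p = 1.2e-05, limma). The T cell markers summed to 2.95 to 5.52 FPKM in Lin- cells and 25.2 to 60.5 in BMC, and the NK cell markers to 1.58 to 2.46 against 17.5 to 25.8. Leaving out any 1 BMC library left 3 NK cell genes and 5 or 6 T cell genes called lower, since such genes then fall under the minimum of 3 libraries.

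The genes most like Cxcl9 and Xcl1 in pattern were sought over the 15 libraries of the table with 5 groups, among 9427 genes, by Pearson correlation of log2(FPKM + 1). These libraries share groups, so the values are descriptions without a test. Nearest to Cxcl9 were Ifi47, an interferon-induced GTPase, Mum1l1, St6galnac2, Pttg1ip and Angpt2, an endothelial growth factor that opposes TIE2 signalling (r = 0.99 for each). Ifi47 had means of 15.5, 18.9, 28.6, 50.9 and 216 FPKM in BMC, Lin-, LSK, bone EC and irradiated bone EC, and Angpt2 was at 2.96 in bone EC and 27.2 in irradiated bone EC. Nearest to Xcl1 were Rnf144b (r = 0.87), the T cell receptor constant gene Trbc2 (0.87), the MHC class I gene H2-T22 (0.86), Gimap3 (0.85) and Il2ra (0.83). Trbc2 was at 18.6 FPKM in BMC, 3.06 in Lin-, 1.35 in LSK, 9.07 in bone EC and 17.7 in irradiated bone EC.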

How the data were processed

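Bulk RNA from 33 libraries was measured in 4 tables of FPKM that the authors deposited, each normalized separately. Per the submitters' processing notes, bcl2fastq 2.19.1.403, TopHat2 2.1.1, HTSeq 0.6.1 and DESeq2 1.18.1 were named, with build mm10. Libraries were grouped by their labels, and all 33 columns were matched. Whether counting used strand is not given in the sources used here. FPKM were compared within each table on the log2(FPKM + 1) scale, which understates the change of low genes, with limma 3.58.1 (eBayes with trend, R 4.3.3, version 1.17.8 of data.table) on the 6 libraries of each comparison, for genes that reached 1 FPKM in 3 or more of them, with Benjamini-Hochberg adjustment over all genes tested and a threshold of 0.05. A gene under 1 FPKM in all libraries of 1 group can pass this filter only through the other group, which fixes its direction. A fold is a ratio of mean FPKM. An exact permutation test of 3 against 3 cannot go below p = 0.1 and was not used. FPKM steps gave whole reads for 100% of 38899 genes (within 0.005 of a whole number), 6541 of them without a value above 0. The exon length of GENCODE explained the step for 18244 genes, and for the others the fewest whole reads that give the values were taken. These reads gave depth, counting intervals and a limma voom alternative. Other steps used Python 3.11.15, pandas 2.3.3, scipy 1.17.1 and matplotlib 3.10.9, and the fit was tested on simulated data. The members and all gene lists were chosen with earlier results of these data known. Beside the 10 genes and those of like pattern, up to 4 called genes per list and comparison were named (largest difference, groups apart, higher mean of at least 5 FPKM), or up to 2 by level. Xcr1, Art3, Ptprc, Cdh5, Cxcr3 in the irradiation and 9Gy1D comparisons, and genes given to complete a count were named after their values were seen. Replicate numbers did not pair samples (correlations of deviations from -0.22 to 0.33 over the 7 comparisons). Some genes of the lists enter the counts but are not reported here by name. Cd244a and Adgre1 had no row, and Cxcl11 passed no filter.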

Additional observations from a re-analysis of the deposited data

How the results depend on the processing

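The genes called numbered 5463 after irradiation (10956 scaled to endothelial markers; 3724 to 5919 when 1 library was left out), 3065 in Vav1 DTX EC (1114; 1124 to 4764), 890 in Apln+ EC (242, and 445 with a minimum mean of 5 FPKM; 149 to 3835), 5133 in 9Gy1D EC (8805; 3417 to 4794), 9287 and 8608 in bone EC against BMC and LSK (6069 and 5083 with the minimum mean; 6977 to 8152 and 6345 to 7581) and 7144 in Lin- (5179 to 7698). For the 10 genes, 2 calls in Apln+ EC became 0 with a pseudocount of 0.1 or no filter and 1 with the minimum mean or endothelial scaling (0 to 6 when 1 library was left out). The 5 calls in 9Gy1D EC became 3 without a filter, 2 with the minimum mean and 3 with Esm1+ replicates 1 and 2 averaged, an alternative chosen after seeing the data (3 to 5). The 7, 8 and 6 calls against BMC, against LSK and in Lin- ran from 5 to 7, 6 to 8 and 3 to 6 when 1 library was left out, the 6 became 7 with no filter (Cxcl9 added, higher), and the 8 became 4 with the minimum mean, under which 4 of the genes were tested. Leaving out a library of the higher group also takes genes out of the test. Higher calls made up 53.8% after irradiation (68% in TPM and 1.71% with endothelial scaling), 43% in Vav1 DTX EC (68.7% and 12.5%), 38% in Apln+ EC (27.7% in TPM), 47.2% in 9Gy1D EC (64% and 4.42%), 50.8% against BMC (68.1% in TPM) and 49% against LSK (22.8% in TPM). The median log2 difference over all genes, at 0.06, 0.03, 0.04, 0.0, 0.0, -0.05 and 0.03 in the order above, became -1.32, -0.11, -0.16 and -1.34 in the first 4 with endothelial scaling, and 0.3, 0.26, 0.23, 0.38, -0.71 and 0.23 in TPM after irradiation, in Vav1 DTX EC, in 9Gy1D EC, against BMC, against LSK and in Lin-. With endothelial scaling these turned: after irradiation Cd3e (-0.44), Jak1 (-0.02), Nlrc5 (-0.06), Ifngr1 (-0.52), Il2rg (-0.6), Lck (-0.71), Serpinb9 (-0.05), Gzmb (-0.16), Ctsw (-0.3) and Mrc1 (0.0), and in 9Gy1D EC Ifngr1 (-0.37), Jak1 (-0.43), Irf1 (-0.44), Srgn (-0.41) and Lamp1 (-1.2). Laptm5 in bone EC against LSK turned to -0.34 in TPM and -0.01 with voom. The cause of these changes was not tested. With the replicate number as a block, the genes called numbered 4402, 2123, 891, 4521, 9115, 8192 and 6782 in the same order, and the calls among the 10 numbered 2, 4, 7, 8 and 6 in the 5 tested comparisons: Cxcl10 (adjusted p = 0.06) in Apln+ EC and Ccl5 (0.076) in 9Gy1D EC lost theirs and Cd3e in Apln+ EC gained one (0.048, limma). Among 5662 values of named genes under the alternatives 5305 were labelled unchanged. For tested genes this meant the same side of the threshold. A call kept its direction, while a value without a call could change sign. For the 10 genes in the 2 contrasts without a test it meant a shift small beside the standard error. Depth limits Ifng in all groups, and Xcl1, Gzma, Cd3e and Cd3g in LSK, where 0 to 3 reads or, for Cd3e, up to 5 stood behind each value.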
